A study of Homo sapiens with 2 samples.

Results

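The NOTCH pathway was described here through 10 genes: the receptor genes NOTCH1, NOTCH2, NOTCH3 and NOTCH4, the ligand genes JAG1 and JAG2, the nuclear effector gene RBPJ, the inhibitor gene NUMB, the target gene HES1 and the Deltex family gene DTX3L. They were taken as the array rows whose gene symbol in the platform's annotation is one of these names, and all 10 were found, with 1 row each, among 16583 named genes. RNA of A375, an established human melanoma cell line, was measured on 2 oligonucleotide arrays with a single dye. The control array was of cells given an empty lentivirus (A375-vector), and the second array was of cells whose lentivirus encoded a hairpin RNA targeting BMI1 (A375-shBMI-1). Both cultures had therefore received a lentivirus and differed, as far as the labels say, in the hairpin. Whether either culture was a clone or a mixed population is not given in the sources used here. BMI1 is a subunit of Polycomb repressive complex 1, which holds developmental genes silent by modifying chromatin. With 1 array in each group there is no replicate error for any value and no test between the groups. The 10 genes were chosen by name, with their intensities and log2 ratios on these 2 arrays already known, so the values below are a description.

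NOTCH receptors are cleaved at the cell surface once a ligand on a neighbouring cell binds them, first by an ADAM protease and then by gamma-secretase. The freed intracellular domain enters the nucleus and joins RBPJ, a DNA-binding protein that otherwise recruits repressors, and the complex switches on genes of the HES and HEY families. In the pigment lineage, NOTCH signalling is known from mice for keeping melanocyte stem cells, and several NOTCH receptors have been studied as growth-promoting genes in melanoma.

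BMI1, the silenced gene, had an intensity of 68.6 in the control and 25.8 with the hairpin (log2 ratio -1.41). The row SD described below was 0.80 at this level, the 5th percentile of genes of like intensity was -1.44, and with a pseudocount of 50 the ratio was -0.65, short of 2-fold. Both intensities were under the brightness limit used here, which is the median of all array rows (131.2 on the empty vector array and 129.8 on the shBMI-1 array), reached on at least 1 of the 2 arrays. Of the named genes, 8921 passed that limit. Their median log2 ratio was 0.09, and all ratios are shBMI-1 over empty vector. The lineage markers of A375 were mixed: SOX10 and S100B passed the limit, and MITF, MLANA, PMEL, TYR and TYRP1 did not. Of the markers of other cell types, 2 of 5 leukocyte, 1 of 5 endothelial, 0 of 5 fibroblast and 2 of 6 keratinocyte genes passed. All 5 endothelial and all 5 fibroblast markers had ratios below 0, as had 2 of 5 leukocyte and 3 of 6 keratinocyte markers. Of all genes above the limit, 60% had ratios above 0. TIE1, the endothelial marker above the limit, was at 599.0 in vector cells and 335.2 in shBMI-1 cells (log2 ratio -0.84). The dim endothelial markers ran from -1.39 for CDH5 to -0.10 for KDR, at a row SD of 0.72. Of the leukocyte markers above the limit, LAPTM5 was at 151.9 in vector cells and 19.3 in shBMI-1 cells (log2 ratio -2.98) and CD68 at 1607 and 2562 (0.67), while PTPRC, which defines leukocytes, was at 12.9 and 12.3. The part of these cell types in the values of the NOTCH genes was not tested.

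As a measure of spread, the row SD was used: the pooled SD of the log2 ratios among array rows that carry the same gene symbol, within bands of mean intensity that each cover a doubling between 32 and 4096, with 1 band below and 1 above. It holds no variation between cultures or arrays and does not stand for replicate error. On the log2 scale it was smaller for brighter genes, from 0.80 for intensities between 32 and 64 and 0.76 between 64 and 128 to 0.60 between 128 and 256, 0.42 between 256 and 512, and 0.30 between 512 and 1024. Because such rows may probe separate transcripts, it mixes error with true differences among transcripts. Each of the 10 NOTCH genes had 1 row, so its row SD comes from other genes of like intensity. Probes differ in brightness for reasons other than transcript number, and the intensities of different genes were not set against each other.

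None of the 10 genes differed by 2-fold. The 3 that came closest were NUMB, which was higher with shBMI-1 at a log2 ratio of 0.83, and DTX3L and RBPJ, which were lower at -0.80 and -0.77. The receptor genes NOTCH1 and NOTCH2 and the target gene HES1 had ratios smaller in size than the row SD at their levels. NOTCH3, NOTCH4, JAG1 and JAG2 did not reach the brightness limit on either array. Of the 6 genes above the limit, 0 were at least 2-fold higher, where 3.23% of the 8921 genes were, and 0 were at least 2-fold lower, where 3.55% were. At 1.5-fold, 1 of the 6 was higher, with a background of 10.1%, and 2 of the 6 were lower, with a background of 8.45%. Nothing is read from these shares, since the genes were listed with these ratios known. Ratios were above 0 for 3 of the 6 genes, where 60% of all genes above the limit were above 0, and the median of the 6 was 0.01.

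**Figure D1:**
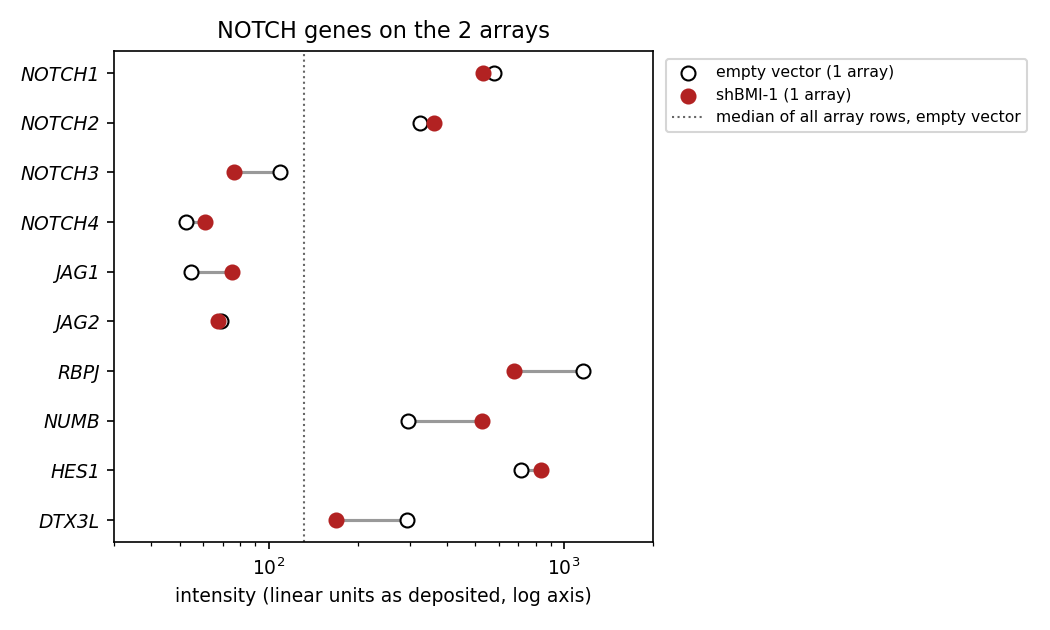
Intensity of each of the 10 NOTCH genes on the 2 arrays, in linear units as deposited on a log axis; open points are the empty vector, filled points shBMI-1, and the dotted line is the median of all array rows with the empty vector, 131.2. The widest gaps on the log axis are those of NUMB, DTX3L and RBPJ, and NOTCH3, NOTCH4, JAG1 and JAG2 lie left of the line on both arrays.

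Among the receptors, NOTCH1, the founding member of the family, had an intensity of 580.1 on the control array and 531.0 on the shBMI-1 array. Its log2 ratio was -0.13, against a row SD of 0.30. NOTCH2, which acts beside NOTCH1 in melanocyte stem cells of mice, had an intensity of 325.8 in vector cells and 362.6 in shBMI-1 cells. Its log2 ratio was 0.15, against a row SD of 0.42, so the receptors above the brightness limit had ratios of opposite sign, each smaller than the row SD. The RefSeq gene table lists 4 NOTCH2NL genes, partial copies of NOTCH2 that share its first exons. Which stretch the NOTCH2 row probes is not given in the sources used here, so its signal is uncertain as a measure of NOTCH2 alone. One of the copies, NOTCH2NLA, had a row of its own with an intensity of 5770 on the control array and 7531 on the shBMI-1 array (log2 ratio 0.38).

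NOTCH3, a receptor known from vascular smooth muscle, was dim, at 109.5 in vector cells and 76.0 in shBMI-1 cells. Its log2 ratio of -0.53 was the largest among the receptors and lay within a row SD of 0.76. With a pseudocount of 50 it was -0.34. NOTCH4, known mainly from endothelial cells, was at 52.5 on the control array and 60.7 on the shBMI-1 array. Its log2 ratio was 0.21, against a row SD of 0.80. Whether these dim values lay above the background of the arrays is unknown, as background signals were not analysed here. The endothelial marker values given above stand beside those of NOTCH4, and their part in them was not tested.

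Of the ligands, JAG1 had an intensity of 54.6 in vector cells and 75.02 in shBMI-1 cells. Its log2 ratio was 0.46, against a row SD of 0.80, and 0.26 with a pseudocount of 50. JAG2 had an intensity of 68.6 on the control array and 67.2 on the shBMI-1 array, the smallest difference of the 10 genes, with a log2 ratio of -0.03. Neither ratio stood out at this brightness. The 5th and 95th percentiles of all named genes were -1.44 and 1.41 at intensities of 32 to 64, where JAG1 lies, and -1.32 and 1.24 at 64 to 128, where JAG2 lies.

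RBPJ, the DNA-binding protein through which all 4 receptors act, had an intensity of 1154 in vector cells and 676.1 in shBMI-1 cells. It was 1.71-fold lower, a log2 ratio of -0.77 against a row SD of 0.30. Among genes at intensities of 512 to 1024, the 5th percentile of the ratios was -0.57, and RBPJ lay below it. It also lay below the 5th percentile of its band after median centring (-0.76 against -0.56), quantile normalization (-0.84 against -0.64), loess normalization (-0.85 against -0.65) and with a pseudocount of 50 (-0.73 against -0.53). RefSeq lists 4 RBPJ pseudogenes, processed copies of the transcript, and signal from them could not be told from that of the gene. RBPJL, a paralog with a row of its own, was dim at 32.8 and 44.4.

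NUMB, an endocytic adaptor that counters NOTCH signalling by promoting removal of the receptor, had an intensity of 296.5 on the control array and 528.2 on the shBMI-1 array. It was 1.78-fold higher, a log2 ratio of 0.83 against a row SD of 0.42. The 95th percentile of the ratios of genes at 256 to 512 was 0.79, just under the value of NUMB. After loess normalization its log2 ratio was 0.77, against a 95th percentile of 0.73. NUMBL, its paralog, was under the limit at 46.8 and 64.1, a log2 ratio of 0.45 against a row SD of 0.80. Of the 10 genes, RBPJ and NUMB were the 2 outside the 5th to 95th percentile range of genes of like intensity, where by construction 10% of all genes lie.

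**Figure D2:**
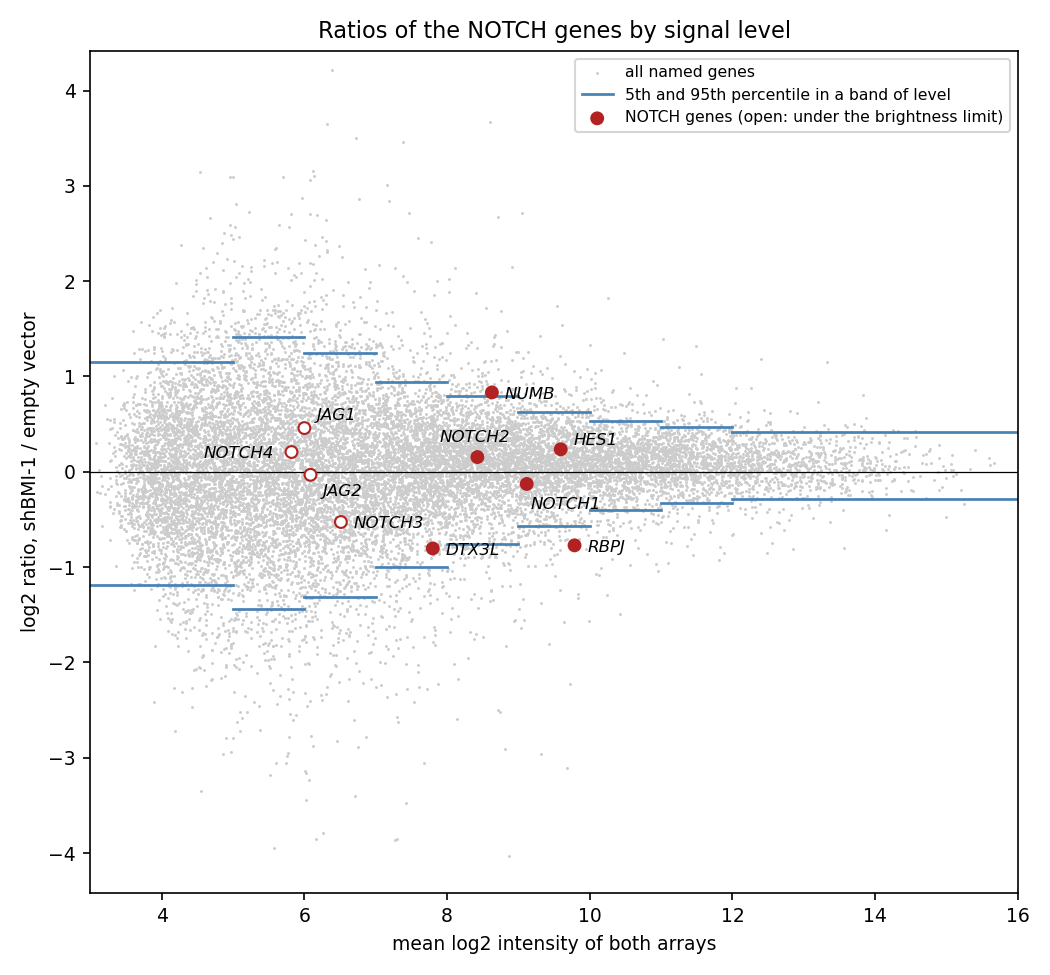
The log2 ratio of shBMI-1 over empty vector against the mean log2 intensity of both arrays, for all named genes (grey) and the 10 NOTCH genes (red, open where under the brightness limit); blue lines are the 5th and 95th percentile of the ratios in each band of level. NUMB (0.83) lies just above and RBPJ (-0.77) below the lines of its band, and the other 8 NOTCH genes lie between the lines.

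HES1, a basic helix-loop-helix repressor and the best known direct target of RBPJ, had an intensity of 711.7 in vector cells and 838.1 in shBMI-1 cells. It was 1.18-fold higher, a log2 ratio of 0.24 that was smaller than the row SD of 0.30 and ran from 0.16 to 0.25 over the scalings and the pseudocount. RBPJ, NUMB and HES1 thus differed in size and sign: RBPJ was lower, NUMB higher, and HES1 within the row SD. Promoter windows of RefSeq genes (GRCh38.p14, 250 bases before to 50 after a start site) were searched for the RBPJ core motif TGGGAA on both strands, its reverse complement being TTCCCA. All 10 genes had a window, 14 windows in all because RBPJ has 5 start sites. The motif was in 2 of the 14 windows, while 24.03% of 35116 windows of all genes hold it. The HES1 window and 1 of the 5 RBPJ windows held it, with 2 matches each, and 3.80% of all windows hold at least 2. In HES1 the matches begin 84 and 70 bases upstream of the start site, on the strand of the gene. These windows are shown because one belongs to the target gene and one to the effector gene itself, with the RBPJ core motif in capitals. A match of letters is not evidence of binding, and RBPJ binding was not measured here.
HES1 promoter, chr3:194135898-194136197, plus strand: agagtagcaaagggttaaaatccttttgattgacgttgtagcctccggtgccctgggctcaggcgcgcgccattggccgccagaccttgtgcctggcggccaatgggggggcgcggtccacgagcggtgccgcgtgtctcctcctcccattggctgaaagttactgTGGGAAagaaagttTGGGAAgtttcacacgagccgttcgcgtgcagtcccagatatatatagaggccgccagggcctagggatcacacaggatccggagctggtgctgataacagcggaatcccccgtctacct
RBPJ promoter, chr4:26319496-26319795, plus strand: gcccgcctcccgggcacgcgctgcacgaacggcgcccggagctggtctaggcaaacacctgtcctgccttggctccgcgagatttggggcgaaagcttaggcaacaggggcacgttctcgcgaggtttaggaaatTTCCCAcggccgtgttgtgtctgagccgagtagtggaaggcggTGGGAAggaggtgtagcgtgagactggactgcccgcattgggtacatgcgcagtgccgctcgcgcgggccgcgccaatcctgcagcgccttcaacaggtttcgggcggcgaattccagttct

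DTX3L encodes an E3 ubiquitin ligase of the Deltex family, named after a Drosophila regulator of Notch, and is best known as the partner of PARP9 in DNA repair and interferon responses. DTX3L had an intensity of 294.3 on the control array and 168.6 on the shBMI-1 array. It was 1.75-fold lower, a log2 ratio of -0.80 against a row SD of 0.60, and lay inside the 5th to 95th percentile range of genes at 128 to 256, which ran from -0.999 to 0.942. With a pseudocount of 50 the ratio was -0.66. PARP9 was under the brightness limit, at 83.4 in vector cells and 58.4 in shBMI-1 cells. Its log2 ratio of -0.51 was within a row SD of 0.76. PARP14, a further binding partner, was at 106.3 and 94.7 (-0.17). Of the neighbours on the chromosome, PARP15 had a log2 ratio of -0.02, and KPNA1, on the far side of PARP9, went from 284.8 to 20.6. KPNA1 and PARP15 were looked up after the value of DTX3L had been seen.

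The start sites of DTX3L and of PARP9 face away from each other, and RefSeq places the nearest pair 38 bases apart, so that their windows share 137 bases. The windows were searched for the core of the interferon response element, which reads GAAA, any 2 bases and GAAA again, on both strands. The same single match lies in both windows, and 3.57% of all 35116 windows hold at least 1. The DTX3L window is shown because it is shared by both genes, with this match in capitals. Whether interferon signalling had a part in the value of DTX3L was not tested.
DTX3L promoter, chr3:122564088-122564387, plus strand: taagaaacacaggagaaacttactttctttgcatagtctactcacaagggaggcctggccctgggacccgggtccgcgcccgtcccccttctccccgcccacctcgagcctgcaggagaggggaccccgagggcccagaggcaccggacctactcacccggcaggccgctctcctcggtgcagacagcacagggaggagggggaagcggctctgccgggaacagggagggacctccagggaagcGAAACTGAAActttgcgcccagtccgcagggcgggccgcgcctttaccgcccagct

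The rest of the pathway was followed in a list of 86 further genes, 75 of which had a named row and 42 of which passed the brightness limit. A gene could pass through the 1 array on which it was higher, as HES2 and HES7 did with shBMI-1 and DLK1, MAML1 and MAML3 with the empty vector. Of these 42 genes, 22 ratios were above 0 and 20 were below, and no gene reached 2-fold. Their median log2 ratio was 0.04, beside 0.09 for all genes above the limit. Both measures depended on scaling: the median was -0.041 after quantile and -0.046 after loess normalization, and the counts were then 18 above 0 and 24 below in each case. At 1.5-fold, 3 genes were higher (TLE3, KAT2A and PSEN2) and 1 was lower (NCSTN), beside the 10.1% and 8.45% of all genes above the limit.

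The proteases that release the intracellular domain held the gene with the lowest ratio of these 42. NCSTN encodes nicastrin, the subunit of gamma-secretase that receives substrates, and it was at 2157 on the empty vector array and at 1244 on the shBMI-1 array. It was 1.73-fold lower, a log2 ratio of -0.79 against a row SD of 0.25. The other gamma-secretase genes did not go one way. APH1A, a scaffold subunit, was at 5424 and 4397, a log2 ratio of -0.30 against a row SD of 0.20. PSEN2, a catalytic subunit, was at 738.7 and 1128, a log2 ratio of 0.61 against a row SD of 0.30. PSENEN was at 0.15 and APH1B at -0.05 on the log2 ratio scale. Of the enzymes that cut before gamma-secretase, the sheddase gene ADAM17 had a log2 ratio of 0.24, FURIN one of -0.03, and ADAM10 was under the limit at 61.9 and 95.9. In all, 3 of the 7 protease genes above the limit had a ratio above 0 and 4 below, with a median of -0.03.

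Of the other ligand genes, 5 passed the limit, 1 with a ratio above 0 and 4 below, with a median of -0.19. The 4 ratios below 0 were each within their row SD, and DLK1, whose ratio is this median, reached the limit only on the empty vector array. No direction of the ligands is read from them. MFAP2, a microfibril protein that binds NOTCH ligands and receptors, was the one above, at 3461 on the control array and 4841 on the shBMI-1 array as means of 2 rows. The log2 ratio of MFAP2 was 0.48, against a row SD of 0.23 and a 95th percentile of 0.47 at intensities of 2048 to 4096. Its rows had log2 ratios of 0.30 and 0.67. DLL4, the Delta ligand of vessel sprouting, was at 216.9 and 169.6 (-0.35, row SD 0.60), DLK2 at 914.3 and 797.8 (-0.20), DLK1 at 131.5 and 115.4 (-0.19), and EGFL7 had a log2 ratio of -0.06. The canonical ligand gene DLL1 was under the limit, and so was DLL3 as the mean of its 2 rows. The brighter DLL3 row, at 141.7 and 148.8, was above it with a log2 ratio of 0.07, and the dimmer, at 118.5 and 99.3, had a log2 ratio of -0.25. Of the genes that act on ligands by ubiquitin and endocytosis, MIB2 had a log2 ratio of -0.24, EPN2 0.09 and EPN1 0.08 (-0.01 after quantile and -0.003 after loess normalization). Of the sugar-transferring enzymes that tune receptors, 3 passed the limit, with POFUT1 at 0.20 from rows of -0.07 and 0.46, the Fringe gene RFNG at -0.20 and XXYLT1 at -0.03. Under the limit, the Fringe genes LFNG (0.49) and MFNG (0.40) and the glucosyltransferase gene POGLUT1 (-0.47) were within their row SD.

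**Figure D3:**
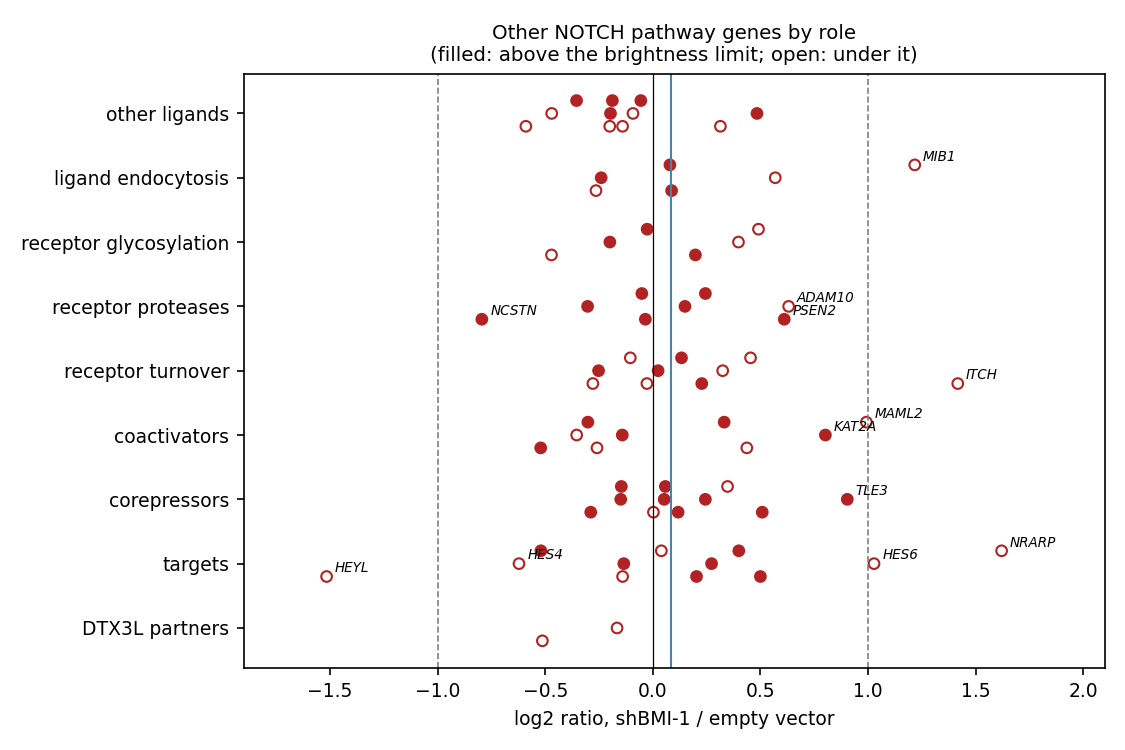
The log2 ratio of shBMI-1 over empty vector for 75 other NOTCH pathway genes, by role; each point is 1 gene, filled where it passed the brightness limit and open where it did not, dashed lines mark 2-fold and the blue line the median of all genes above the limit, 0.09. The filled points lie between the dashed lines, from NCSTN (-0.79) to TLE3 (0.90), and the 5 genes past 2-fold are all open.

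The coactivators and corepressors of the list were divided as well. Among the coactivators, KAT2A, a histone acetyltransferase also called GCN5, was at 1226 in vector cells and 2137 in shBMI-1 cells. Its log2 ratio was 0.80, against a row SD of 0.25. The Mastermind genes, whose products hold the intracellular domain and RBPJ together, were at -0.52 for MAML1 and -0.30 for MAML3, each within its row SD. MAML2 was under the limit at 49.4 and 98.2. SNW1 was at 0.33 and the acetyltransferase gene EP300 at -0.14. Among the corepressors, 6 of 9 genes above the limit had a ratio above 0 and 3 below, with a median of 0.06, but 4 and 5 after quantile or loess normalization, with a median of -0.02. TLE3, a Groucho family corepressor that HES proteins recruit, had the highest ratio of the 42 genes, from 261.8 to 489.9 (0.90, row SD 0.42). Its relatives TLE2 and TLE1 were at 0.51 and 0.24, HDAC2 at -0.29 and SPEN, a corepressor that binds RBPJ, at -0.15.

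Besides HES1, 6 genes of the target list, which holds the HES and HEY families and other described targets, passed the limit, 4 with a ratio above 0 and 2 below, with a median of 0.24. Among those above 0, HES7 (115.0 in vector cells and 162.6 in shBMI-1 cells) and HES2 (130.6 and 172.2) reached the limit only on the shBMI-1 array. No direction of the targets is read from these counts or the median. HES5 was at 347.0 on the control array and 242.0 on the shBMI-1 array (-0.52, row SD 0.42), while HES7 (0.50) and HES2 (0.40) were above 0 with a row SD of 0.60. HEY1 was at 337.8 and 408.1 (0.27, row SD 0.42). MYC (0.20) and CCND1 (-0.13), which many pathways control, were within their row SD. The receptor turnover genes above the limit ran from -0.25 for DTX2 to 0.23 for DTX3, with the receptor ubiquitin ligase gene CBL at 0.13. DTX1, the Deltex gene most closely tied to NOTCH, was at 1494 and 1519, a log2 ratio of 0.02 that was -0.05 after quantile and -0.06 after loess normalization. The Deltex genes DTX1, DTX2 and DTX3 were thus each nearer 0 than DTX3L, but in bands where ratios spread less. The row SD was 0.25 for DTX1 and DTX2 and 0.42 for DTX3, against 0.60 for DTX3L.

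With no brightness limit, 5 of the 75 genes were past 2-fold. Those higher were 4, where 5.32% of all 16583 named genes were at least 2-fold higher, and 1 was lower, where 5.53% were. NRARP, a feedback inhibitor induced by NOTCH, went from 14.7 to 45.2, ITCH, a ubiquitin ligase, from 16.6 to 44.3, MIB1, which activates ligands, from 27.1 to 63.0, and HES6 from 42.8 to 87.2. HEYL, a HEY family target, went from 61.6 to 21.5. With a pseudocount of 50 none of these was past 2-fold: the log2 ratios were 0.56 for NRARP, 0.50 for ITCH, 0.55 for MIB1, 0.56 for HES6 and -0.64 for HEYL. HES6, HEYL and NRARP thus had ratios of both signs at intensities where the row SD was 0.72 to 0.80. The family members HES4 (-0.62) and HEY2 (-0.14) lay in the same bands, short of 2-fold.

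The 10 main genes kept their signs under every scaling tried and with the pseudocount. The log2 ratio of RBPJ ran from -0.85 to -0.73, that of NUMB from 0.74 to 0.85 and that of DTX3L from -0.85 to -0.66 over these settings. NOTCH1 ran from -0.20 to -0.11 and NOTCH2 from 0.09 to 0.17. None of the 10 passed 2-fold in any of them.

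**Figure D4:**
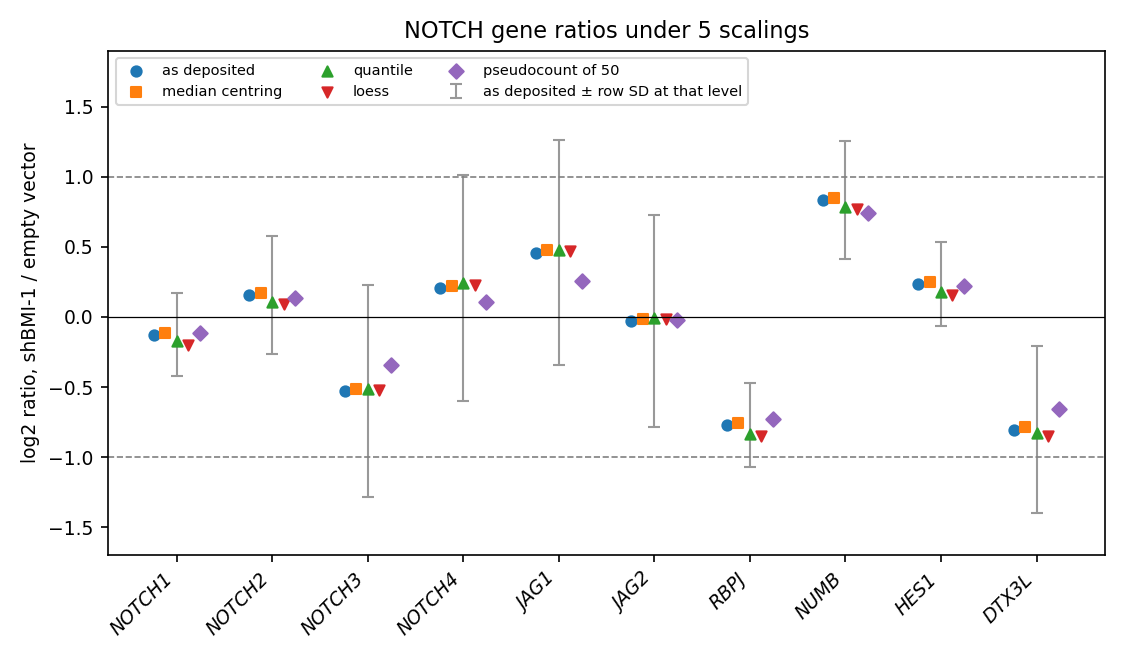
The log2 ratio of shBMI-1 over empty vector for the 10 NOTCH genes as deposited, after median centring, quantile or loess normalization, and with a pseudocount of 50; bars are the row SD of other genes at that level around the deposited value, and dashed lines mark 2-fold. The settings move each gene by less than its bar. The bars hold no variation between cultures or arrays, so whether a bar reaches 0 is no test. Those of RBPJ, NUMB and DTX3L do not reach 0, yet DTX3L lies inside the 5th to 95th percentile range of its band in every setting.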

How the data were processed

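Per the labels' protocols, total RNA was reverse transcribed with oligo-dT primers, and the double-stranded cDNA was labelled with Cy3 by the NimbleGen one-colour procedure. The deposited values are linear intensities, 1 per row and array, for 45033 rows. How the arrays were scanned, summarised from probes and normalized is not given in the sources used here. Of the rows, 18188 had a gene symbol in the platform's annotation and 26845 were unnamed here. The log2 of each deposited intensity was taken with no pseudocount, and rows of one symbol were averaged. The brightness limit was the median over all rows of an array, to be reached on 1 or both arrays. The threshold was 2-fold, and with 1 array per group there was no test and no p-value. The ratio calculation was tested on simulated arrays with known changes, which checks the calculation and not the values of single genes.

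The 10 genes and the wider lists were chosen with earlier results of these data known. Named genes were the 10, BMI1, PARP9, up to 4 genes of each role list with the largest ratios above the brightness limit, every wider pathway gene past 2-fold above it (there was none), and canonical genes under it. Above the limit, PSENEN, APH1B, FURIN, EGFL7, EP300, SPEN, MYC and CCND1 were named outside this rule. Other genes under the limit and the cell type markers named had their values seen. NOTCH2NLA, KPNA1 and PARP15 were added after the values were seen. Promoter windows came from RefSeq (GRCh38.p14). Alternatives were median centring, quantile and loess normalization (span 0.3, 3 iterations), a pseudocount of 50, use of each gene's brightest row only, other brightness limits and thresholds of 1.5-fold and 3-fold, and means for medians. Python 3.11.15 with numpy 2.4.6, pandas 2.3.3 and statsmodels 0.14.6 was used.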

Additional observations from a re-analysis of the deposited data

How the results depend on the processing

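No paired analysis was possible because each group has 1 array. The number of arrays limits the precision, and the row SD covers differences between rows only. For the 10 NOTCH genes, the count past 2-fold was 0 in both directions under each scaling, the pseudocount, the brightest row and each brightness limit, and with 3-fold as the threshold. The brightest row, the stricter brightness limits and the 3-fold threshold could not have changed it, as each gene had 1 row and none reached 2-fold. At 1.5-fold it was 1 higher and 2 lower. Their median log2 ratio of 0.01 was near 0 and changed sign with the setting, at -0.04 after quantile and -0.05 after loess normalization, -0.13 when the limit was the 75th percentile and 0.06 with no limit; the mean was -0.08. For the wider list, the counts were 4 higher and 1 lower with no brightness limit, as more dim genes then count, and 3 higher and 1 lower at 1.5-fold. Its median was -0.041 after quantile normalization and -0.046 after loess normalization. The median of all genes above the limit was 0.03 and 0.02 after these 2 steps, against 0.09 as deposited. Each of the 50 single-gene alternatives for the 10 genes moved the ratio by less than its row SD. The brightest-row alternatives among them could not move it, as each of the 10 genes had 1 row, and median centring moved every gene by the same amount.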
